A study of Mus musculus with 8 samples.

Results

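The genes described here are 43 genes of DNA replication and the cell cycle, named one by one, of which 42 were measured among 19540 genes on 8 arrays of mouse liver. They fall into 26 replication genes, 5 regulators of the step from G1 into S phase, and 12 mitotic genes with 11 measured. Ccnb1 was not analysed here. Each gene is represented by the probe set that the platform annotation pairs with its symbol alone, and by the brightest one over the 8 arrays where there were several, as for Pcna, Rpa3 and Top2a.

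The livers came from male mice of strain C57B/6 aged 12 weeks, fed chow under normal lighting and sampled at ZT10 (5 pm). There were 4 wild-type arrays (WT) and 4 arrays of livers depleted of HNF6 (HNF6KO), a liver transcription factor encoded by Onecut1. The labels do not say how HNF6 was removed, in which cells, or whether each array stands for a separate animal. The p-values therefore reflect the spread among the samples alone, which may be technical. All values are deposited log2 expression values, differences are HNF6KO minus WT, and adjusted p-values come from limma over all 19540 genes.

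DNA replication starts when the licensing factors Cdc6 and Cdt1 load the MCM helicase ring onto origins. The clamp PCNA, placed by the RFC loader, then holds DNA polymerases on the template while FEN1 and LIG1 join the lagging-strand fragments. In dividing cells the replication genes are switched on by E2F factors at the G1/S step, and the mitotic genes later, by way of CCAAT boxes and CHR elements in their promoters. The adult liver is largely quiescent, and hepatocytes enter the cycle in number mainly after injury or loss of tissue. PCNA also serves in DNA repair, so that its transcript is not a marker of S phase alone.

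The promoters of 5 members are shown, chosen after the values were seen. Pcna passed the test, the groups of Rpa1 and Top2a did not overlap, and Mcm6 and Mki67 had the largest differences of the helicase and the mitotic genes. They are the 250 bases before the RefSeq transcript start, 5′ to 3′ on the strand of the gene (build GRCm38.p6). Capitals mark matches on either strand to E2F sites (TTTCCCGC, TTTGGCGC, TTTCGCGC or TTTGCCGC), the CHR element in its form TTTGAA or in its other known form, TTCGAA, and the box whose letters are CCAAT. They also mark the core of the HNF6 site, searched as ATTGAT and, in a second spelling, as ATCGAT. The sequences lie at chr2:132253181-132253430 (Pcna), chr11:75348384-75348633 (Rpa1), chr1:128359706-128359955 (Mcm6), chr11:99024190-99024439 (Top2a) and chr7:135716380-135716629 (Mki67), all on the minus strand.
Pcna: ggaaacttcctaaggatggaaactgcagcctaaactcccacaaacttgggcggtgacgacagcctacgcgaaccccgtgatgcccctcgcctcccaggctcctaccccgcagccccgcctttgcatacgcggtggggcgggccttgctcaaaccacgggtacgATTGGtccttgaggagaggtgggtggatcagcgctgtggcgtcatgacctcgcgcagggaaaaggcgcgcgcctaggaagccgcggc
Rpa1: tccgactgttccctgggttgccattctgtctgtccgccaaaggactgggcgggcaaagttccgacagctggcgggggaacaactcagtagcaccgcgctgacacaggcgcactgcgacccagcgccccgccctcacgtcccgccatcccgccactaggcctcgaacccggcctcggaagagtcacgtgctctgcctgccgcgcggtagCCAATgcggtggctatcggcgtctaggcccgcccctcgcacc
Mcm6: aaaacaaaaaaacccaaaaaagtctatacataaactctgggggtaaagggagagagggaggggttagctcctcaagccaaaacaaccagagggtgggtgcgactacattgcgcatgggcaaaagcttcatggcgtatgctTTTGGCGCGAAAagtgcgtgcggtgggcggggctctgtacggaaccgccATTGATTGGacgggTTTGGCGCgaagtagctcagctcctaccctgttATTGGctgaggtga
Top2a: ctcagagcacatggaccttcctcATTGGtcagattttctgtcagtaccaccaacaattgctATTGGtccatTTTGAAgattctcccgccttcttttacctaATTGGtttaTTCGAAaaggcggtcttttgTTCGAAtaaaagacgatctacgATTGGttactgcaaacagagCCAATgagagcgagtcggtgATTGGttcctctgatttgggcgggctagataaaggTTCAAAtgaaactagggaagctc
Mki67: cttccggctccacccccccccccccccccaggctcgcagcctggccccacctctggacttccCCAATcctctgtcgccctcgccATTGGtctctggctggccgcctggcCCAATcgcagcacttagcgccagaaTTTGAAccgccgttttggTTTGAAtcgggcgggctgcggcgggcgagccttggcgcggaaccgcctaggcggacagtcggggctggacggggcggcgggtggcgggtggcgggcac

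The printed windows differ in which motifs they hold. Pcna and Rpa1 hold 1 CCAAT box each and no other match. Mcm6 holds 3 E2F matches, at 110, 106 and 47 bases before the start, of which the first pair overlap, and an HNF6 core at 61 bases that overlaps a CCAAT box at 57. Top2a holds 4 CHR and 6 CCAAT matches, and Mki67 holds 2 and 3. Of the 42 measured members, 35 had a promoter in the RefSeq table. E2F matches were found for 6 of 23 replication genes (26.1%) and 1 of 9 mitotic genes (11.1%), against 2.16% of 27025 genes. CHR matches were found for 4 of 23 replication genes (17.4%) and 5 of 9 mitotic genes (55.6%), against 19.6% of all genes. CCAAT boxes stood in 15 of 23 (65.2%) and 8 of 9 (88.9%), against 37.5% of all genes. The HNF6 core stood in 3 of 35 members (8.57%; Mcm6, Mcm7 and Prim1), against 8.48% of all genes. These matches are a description of the letters in those windows.

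Onecut1 itself was lower on the 4 HNF6KO arrays (8.67 to 9.32) than on the 4 WT arrays (9.87 to 10.52), and fell by 1.32 ± 0.18 on the log2 scale (SE, limma, adjusted p = 0.0273). Array medians ran from 6.89 to 6.97. The hepatocyte markers Alb and Ttr stood at means of 13.97 and 13.62 in WT, and 0 of 7 measured hepatocyte markers passed the test, with 1 at an unadjusted p of 0.05 (limma). For Alb and Ttr all HNF6KO arrays lay above all WT arrays, by a small margin (log2 changes 0.08 and 0.09). That separation was seen for 2 of 7 hepatocyte markers (28.6%), against 2.45% of all genes. With 4 arrays in each group, precision is limited by their number. At the 40th percentile of mean expression over all genes, 27 of 42 members lay at or above and 15 below, among them 7 of 11 mitotic genes.

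Of the 42 measured members, Pcna rose in HNF6KO and 41 did not pass an adjusted p of 0.05. Over all genes this test called 0.399%, with 0.159% higher and 0.241% lower. The differences of the 42 members were small and ran from -0.39 for E2f8 to 0.39 for Mki67. The log2 change was above 0 for 34 of 42 members, with a median of 0.08, while over all genes it was above 0 for 42.6%, with a median of -0.01. At an unadjusted p of 0.05, 6 members lay higher (Pcna, Rpa1, Top2a, Mki67, Ccna2 and Birc5) and 3 lower (Cdt1, Ccne1 and E2f8). That is 14.3% and 7.14% of members, against 4.3% and 5.21% of all genes. The count of 6 was 11 without HNF6KO array 1, and the count of 3 was 1 without WT array 2 and 1 without HNF6KO array 2. For 37 of the 41 members that did not pass, the 95% interval of the difference excluded a 1.5-fold change of array values either way. The other 4 were Mcm6, Ccnd1, E2f8 and Mki67. Background was not measured, so for members of low mean expression these intervals cannot exclude a 1.5-fold change in RNA.

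**Figure D1:**
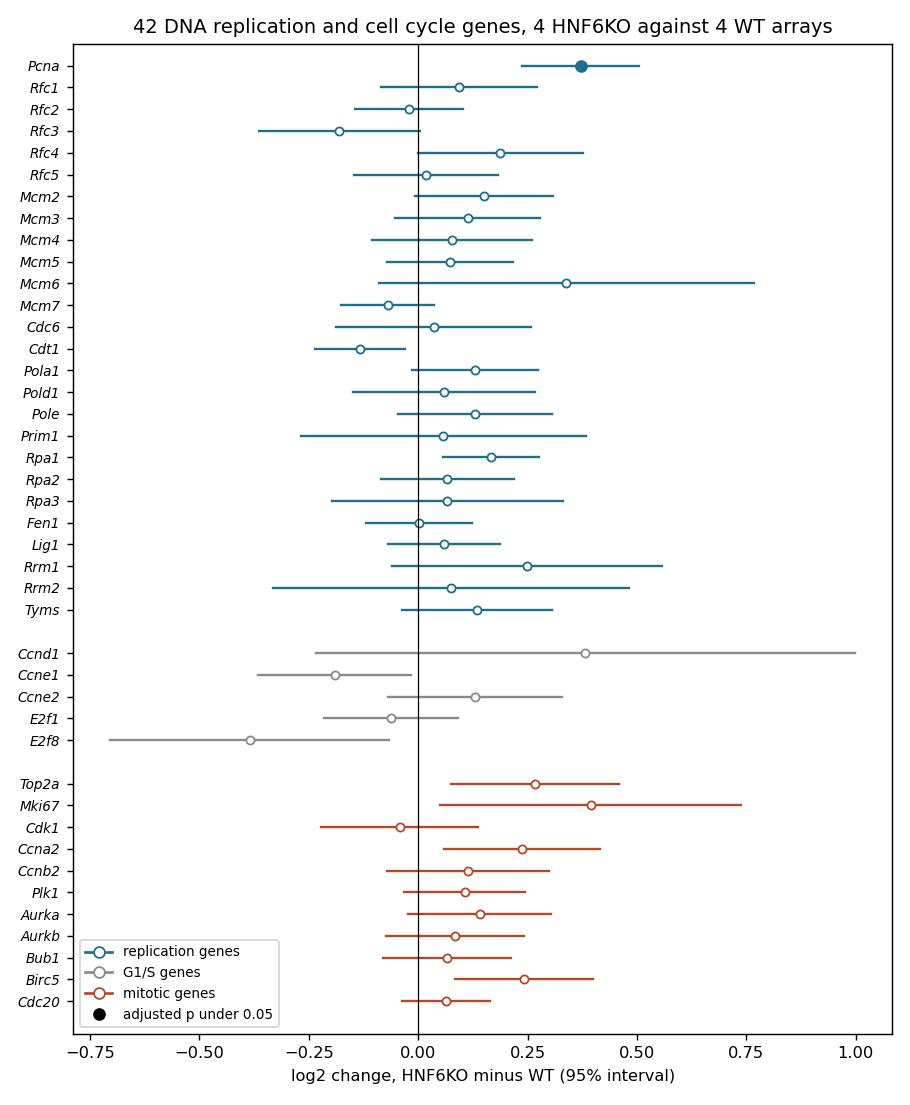
Log2 change (HNF6KO minus WT, points) with its 95% interval (lines) for the 42 measured genes, grouped as replication, G1/S and mitotic genes, from 4 arrays per group. Pcna, at 0.37, is the single filled point (adjusted p under 0.05), and 10 of 11 mitotic genes lie to the right of 0.

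Pcna encodes the sliding clamp of replicative polymerases. The 4 WT arrays read 9.09, 9.28, 9.27 and 9.16, in the order of their numbers, and the 4 HNF6KO arrays read 9.51, 9.63, 9.54 and 9.62. All 4 HNF6KO arrays lay above all 4 WT arrays, and the gap between the groups was wider than the range within either. Pcna rose from 9.20 ± 0.09 to 9.57 ± 0.06 (SD, n = 4 per group), a log2 change of 0.37 ± 0.06 (SE, 95% interval 0.24 to 0.51) or 1.29-fold (limma, adjusted p = 0.0433). With each pair of numbers taken alone, the change was 0.38 (arrays 1 and 2) and 0.36 (arrays 3 and 4). The size held while the call depended on the fit. In limma over all 8 arrays, a term for arrays 1 and 2 against the rest gave adjusted p = 0.0246. Array weights gave 0.0268, cyclic loess 0.0394 and the filter at the 40th percentile 0.0455. The mean of probe sets gave 0.0474 and quantile normalization 0.0478. Leaving out any 1 of the 8 arrays gave 0.34 to 0.40 with adjusted p = 0.0539 to 0.128. Median centring of the arrays gave adjusted p = 0.0571, and an intensity trend with robust variances gave 0.0793.

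A second probe set is paired with Pcna, but it carries little separate information. Its values differed from those of the first by at most 0.0115 on any array and were identical on 1 array. It gave a log2 change of 0.37 ± 0.06 with adjusted p = 0.0521 over all probe sets, against 0.0449 for the first. The annotation gives both the same transcript accessions. The RefSeq gene table lists 2 Pcna pseudogenes, and whether either probe set reads them was not tested.

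**Figure D2:**
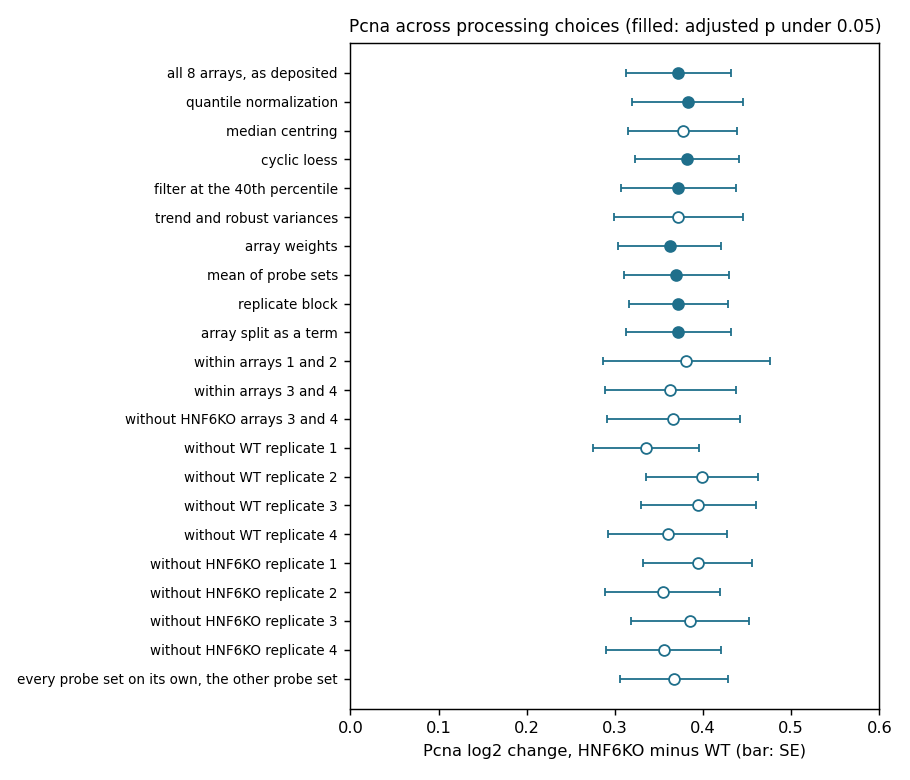
Log2 change of Pcna (points, with SE bars) under each processing choice and with arrays left out. The values lie between 0.34 and 0.40, and filled points mark an adjusted p under 0.05.

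The RFC clamp loader, whose 5 subunits place the clamp, had differences of both signs. Rfc4 had values of 6.22, 6.50, 6.17 and 6.29 on WT arrays and 6.35, 6.44, 6.56 and 6.58 on HNF6KO arrays, a log2 change of 0.19 ± 0.08 (adjusted p = 0.526) with groups that overlap. Rfc3 had the opposite sign, at -0.18 ± 0.08 (adjusted p = 0.534). Rfc1, the large subunit, had 0.09, Rfc2 had -0.02 and Rfc5 had 0.02, with adjusted p from 0.788 to 0.972. Of the 5 genes, 0 passed in limma, and 0 reached an unadjusted p of 0.05. Whether Pcna differed from the loader genes was not tested.

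Among the licensing factors and the MCM helicase, 0 of 8 genes passed in limma and 1 reached an unadjusted p of 0.05. That gene was Cdt1, the factor that brings MCM rings to origins. Cdt1 stood at 7.12, 7.22, 7.13 and 7.17 on WT arrays and at 7.01, 7.07, 7.04 and 6.99 on HNF6KO arrays. Every HNF6KO array was below every WT array, by a small margin, and the log2 change was -0.13 ± 0.05 (95% interval -0.24 to -0.03, adjusted p = 0.372). Cdc6, which acts with Cdt1, had 0.04 ± 0.10 (adjusted p = 0.961).

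Of the 6 MCM subunit genes, 5 had a log2 change above 0, with a median of 0.10. Mcm2 was the closest to the threshold, with values of 7.17, 7.31, 7.08 and 7.35 on WT arrays and 7.40, 7.46, 7.32 and 7.34 on HNF6KO arrays. Its groups overlapped, and its log2 change was 0.15 ± 0.07 (adjusted p = 0.542). Mcm3, Mcm4 and Mcm5 had 0.11, 0.08 and 0.07. Mcm7 was the exception in sign, at -0.07 ± 0.05 (adjusted p = 0.716). Its WT arrays stood at 7.29, 7.28, 7.30 and 7.31 and its HNF6KO arrays at 7.25, 7.26, 7.25 and 7.13, so that the groups did not overlap although they lay close together.

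Mcm6 had the largest difference of the helicase genes and the least even one. Its values were 5.94, 6.21, 6.08 and 6.42 on WT arrays and 6.55, 6.96, 5.97 and 6.51 on HNF6KO arrays. HNF6KO arrays 1, 2 and 4 lay above all WT arrays, and HNF6KO array 3 lay below 3 of the 4. The log2 change of 0.34 ± 0.19 (adjusted p = 0.638) split into 0.68 within arrays 1 and 2 and -0.0037 within arrays 3 and 4. The difference between these 2 values was not tested.

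The polymerase, primase and RPA genes all had a log2 change above 0 (7 of 7, median 0.07), and 0 passed in limma. Rpa1, the large subunit of the protein that coats single-stranded DNA, was the one member of this list whose groups did not overlap. It stood at 7.80, 7.91, 7.82 and 7.82 on WT arrays and at 8.01, 7.94, 8.06 and 8.02 on HNF6KO arrays, a log2 change of 0.17 ± 0.05 (95% interval 0.06 to 0.28, unadjusted p = 0.00723 and adjusted p = 0.277 in limma). Its partners Rpa2 and Rpa3 had 0.07 ± 0.07 and 0.07 ± 0.12. For Rpa3 the dimmer probe set had the opposite sign, -0.18 ± 0.14. Pola1, the catalytic subunit of the priming polymerase, had values of 6.21, 6.28, 6.25 and 6.34 on WT arrays and 6.32, 6.55, 6.42 and 6.31 on HNF6KO arrays. Its groups overlapped, with a log2 change of 0.13 ± 0.06 (adjusted p = 0.575). Pole had 0.13, Pold1 0.06 and the primase gene Prim1 0.06.

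The flap endonuclease Fen1 and the ligase Lig1, which finish lagging-strand fragments, showed no difference that these arrays could resolve. Fen1 stood at 6.43, 6.47, 6.38 and 6.35 on WT arrays and at 6.42, 6.48, 6.30 and 6.43 on HNF6KO arrays, with a log2 change of 0.0020 ± 0.054 and a 95% interval from -0.12 to 0.12 (adjusted p = 0.996). Lig1 stood at 6.47, 6.53, 6.52 and 6.65 on WT arrays and at 6.67, 6.65, 6.56 and 6.53 on HNF6KO arrays, with 0.06 ± 0.06 (adjusted p = 0.830). The groups of both genes overlapped.

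The genes of deoxynucleotide supply, whose enzymes make the building blocks of DNA, had 3 of 3 log2 changes above 0, and 0 passed in limma. Rrm1, the large subunit of ribonucleotide reductase, stood at 7.04, 7.20, 7.35 and 7.36 on WT arrays and at 7.15, 7.36, 7.63 and 7.79 on HNF6KO arrays. Arrays 3 and 4 were the highest in both groups, and the log2 change was 0.25 ± 0.14 (adjusted p = 0.632). The thymidylate synthase gene Tyms stood at 7.38, 7.68, 7.55 and 7.63 on WT arrays and at 7.70, 7.81, 7.68 and 7.59 on HNF6KO arrays, with overlapping groups and 0.13 ± 0.08 (adjusted p = 0.642). Rrm2, the small subunit tied to S phase, had 0.08 ± 0.18 (adjusted p = 0.955), and its highest value was 7.40 on HNF6KO array 4, where the other 3 HNF6KO arrays ran from 6.46 to 6.71.

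The G1/S regulators did not share a direction. Of 5 genes, 2 had a log2 change above 0 and 3 below (median -0.06), 0 passed in limma, and 2 lay lower at an unadjusted p of 0.05. Over all genes 42.6% were above 0, and 5.21% lay lower at that p. E2f8, an atypical E2F that represses E2F target genes, stood at 6.65, 6.88, 6.95 and 7.31 on WT arrays and at 6.69, 6.31, 6.71 and 6.54 on HNF6KO arrays. Only WT array 1 fell into the range of the HNF6KO arrays, and the log2 change was -0.39 ± 0.14 (adjusted p = 0.409). The cyclin E1 gene Ccne1 stood at 7.29, 7.36, 7.40 and 7.43 on WT arrays and at 7.01, 7.15, 7.18 and 7.38 on HNF6KO arrays. HNF6KO array 4 lay within the WT range and the other 3 below it, with a log2 change of -0.19 ± 0.08 (adjusted p = 0.478). Ccne2 had 0.13 ± 0.09 and the activator E2f1 had -0.06 ± 0.07 (adjusted p = 0.723 and 0.858).

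Ccnd1 encodes cyclin D1, which carries growth signals into the cycle, and its HNF6KO arrays scattered more than those of any other member. It stood at 8.44, 8.84, 8.78 and 8.60 on WT arrays and at 8.16, 9.49, 9.52 and 9.02 on HNF6KO arrays. HNF6KO arrays 2, 3 and 4 lay above all WT arrays, and HNF6KO array 1 lay below all of them. The SD was 0.18 in WT and 0.64 in HNF6KO (n = 4 each), and the log2 change was 0.38 ± 0.27 (95% interval -0.23 to 1.00, adjusted p = 0.743). The SD was larger in HNF6KO than in WT for 28 of the 42 members, as it was for 67.9% of all genes.

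**Figure D3:**
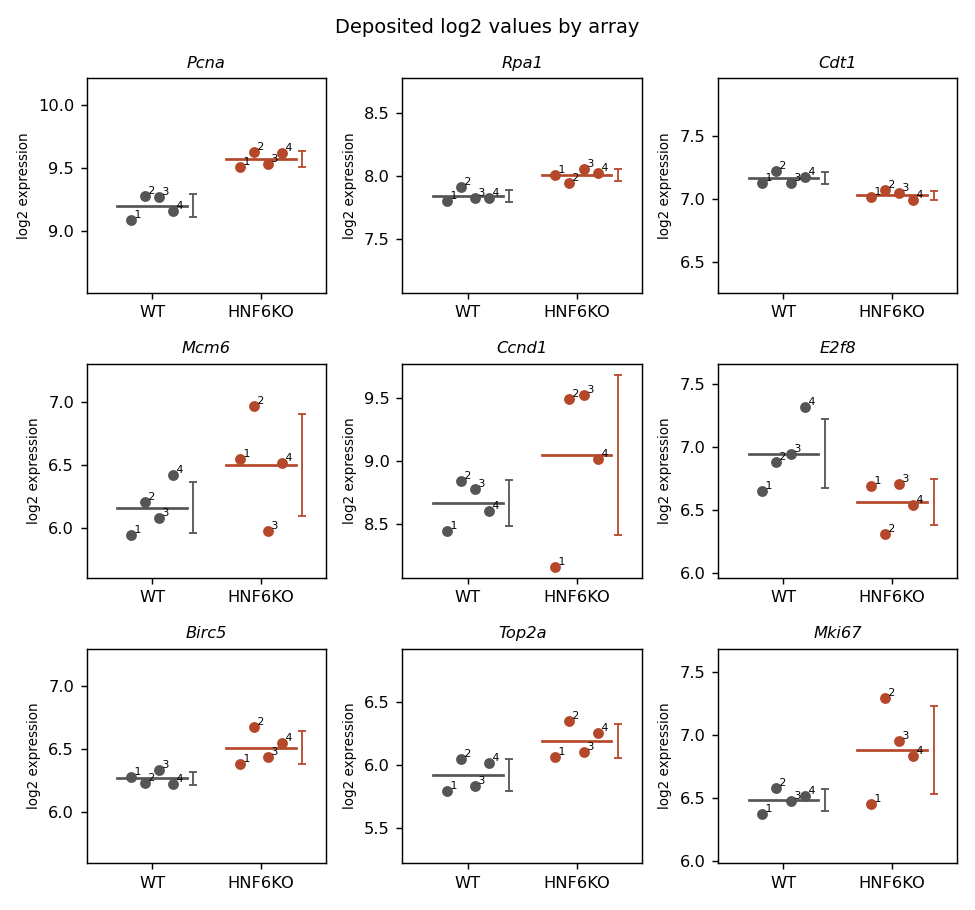
Deposited log2 values of 9 members by array (points, numbered by array), with the group mean (horizontal line) and SD (bar at the right of each group), n = 4 per group; each panel spans the same height in log2 units. The HNF6KO points lie above all WT points for Pcna, Rpa1, Birc5 and Top2a, below them for Cdt1, and overlap them for Mcm6, Ccnd1, E2f8 and Mki67.

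Most mitotic genes lay higher in HNF6KO, and none of them passed the test. Of 11 measured mitotic genes, 10 had a log2 change above 0 (median 0.11), 0 passed in limma, and 4 lay higher at an unadjusted p of 0.05. Of 26 replication genes, 22 had a log2 change above 0 (median 0.07), 1 passed and 2 lay higher at that p. Over all genes 42.6% had a log2 change above 0, and 4.3% lay higher at that p. Within arrays 3 and 4 the log2 change was above 0 for 14 of 26 replication genes and 9 of 11 mitotic genes. Within arrays 1 and 2 it was above 0 for 20 and 10. Over all genes it was above 0 for 41.2% within arrays 3 and 4 and 50.1% within arrays 1 and 2. Groups did not overlap, with HNF6KO higher, for 4 mitotic genes (Top2a, Plk1, Birc5 and Cdc20) and 2 replication genes (Pcna and Rpa1). Over all genes that separation was seen for 2.45%. The reverse separation was seen for 2 replication genes (Cdt1 and Mcm7) and 0 mitotic genes, against 3.21% of all genes. No test of one set against the other was made, since the members are not replicates. Top2a, Plk1, Birc5 and Cdc20 were all dim, below the percentile of mean expression used as the filter. Of the 4 mitotic genes higher at an unadjusted p of 0.05, Top2a, Birc5 and Ccna2 were dim and Mki67 passed the filter. Pcna and Rpa1 also passed the filter. Whichever array was left out, the median lay between 0.07 and 0.11 for the replication genes and between 0.10 and 0.17 for the mitotic genes. The replication median of 0.11 came without HNF6KO array 1.

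Birc5, which encodes survivin of the chromosomal passenger complex, had the smallest p of the mitotic genes. It stood at 6.28, 6.24, 6.33 and 6.22 on WT arrays and at 6.38, 6.68, 6.44 and 6.55 on HNF6KO arrays, a log2 change of 0.24 ± 0.07 (95% interval 0.09 to 0.40, adjusted p = 0.269). Top2a, the topoisomerase that untangles chromosomes before they part, stood at 5.80, 6.05, 5.83 and 6.02 on WT arrays and at 6.06, 6.35, 6.10 and 6.25 on HNF6KO arrays. Its lowest HNF6KO array lay just above its highest WT array, and the log2 change was 0.27 ± 0.08 (adjusted p = 0.329). Its other probe set, which was dimmer, had 0.11 ± 0.05.

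Mki67 and Ccna2 were chosen for a full account after their values were seen. Mki67, the gene of the Ki-67 proliferation antigen, stood at 6.37, 6.58, 6.47 and 6.52 on WT arrays and at 6.45, 7.30, 6.95 and 6.83 on HNF6KO arrays. HNF6KO array 1 lay within the WT range and the other 3 above it, with a log2 change of 0.39 ± 0.15 (95% interval 0.05 to 0.74, adjusted p = 0.439). Ccna2, the cyclin of S phase and early mitosis, stood at 5.89, 6.05, 6.10 and 5.95 on WT arrays and at 6.05, 6.34, 6.21 and 6.34 on HNF6KO arrays. HNF6KO array 1 lay below WT arrays 2 and 3 and the other 3 HNF6KO arrays lay above all WT arrays, with 0.24 ± 0.08 (adjusted p = 0.351).

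The kinases and the exit regulators differed less. The polo kinase gene Plk1 stood at 5.48, 5.69, 5.67 and 5.68 on WT arrays and at 5.69, 5.82, 5.72 and 5.73 on HNF6KO arrays, groups that only just failed to overlap, with 0.11 ± 0.06 (adjusted p = 0.649). Cdc20, which activates the anaphase-promoting complex, stood at 6.27, 6.29, 6.22 and 6.30 on WT arrays and at 6.31, 6.33, 6.32 and 6.38 on HNF6KO arrays, with 0.06 ± 0.04 (adjusted p = 0.732). Aurka and Aurkb, the aurora kinase genes, had 0.14 ± 0.07 and 0.08 ± 0.07. The B-type cyclin gene Ccnb2 had 0.11 ± 0.08, and the spindle checkpoint gene Bub1 had 0.07 ± 0.06. Cdk1, the main mitotic kinase, was the 1 mitotic gene below 0, at -0.04 ± 0.08, with a 95% interval from -0.22 to 0.14 (adjusted p = 0.936).

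Within HNF6KO the mitotic genes did not stand at one level. Relative to each gene's mean over the 8 arrays, their WT medians were -0.11, -0.01, -0.07 and -0.07, and those of HNF6KO arrays 1 to 4 were 0.0043, 0.16, 0.01 and 0.15. HNF6KO arrays 2 and 4 were therefore high and arrays 1 and 3 lay near the mean. HNF6KO array 2 was the highest of its group for 9 of 11 mitotic genes and 12 of 26 replication genes, against 20.1% of all genes, a count made after the values were seen. By a like count, WT array 1 was the lowest of its group for 6 of 11 mitotic genes and 14 of 26 replication genes, against 26.1% of all genes. For the replication genes the WT medians were -0.11, 0.01, -0.07 and 0.0011, and those of HNF6KO were 0.02, 0.06, -0.02 and 0.03, so that the groups overlapped.

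**Figure D4:**
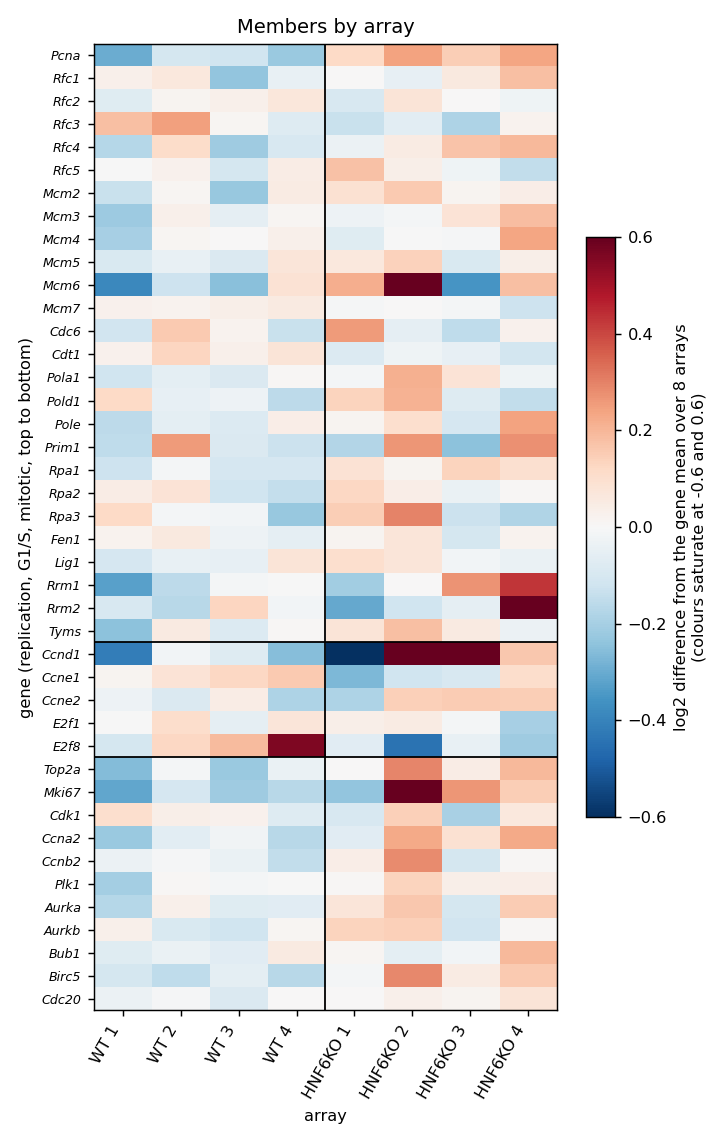
Log2 difference of each gene from its own mean over the 8 arrays (colour, blue low and red high), with genes in rows by group and arrays in columns. The Pcna row is blue in WT and red in HNF6KO throughout, while red in the mitotic rows gathers on HNF6KO arrays 2 and 4.

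By list median, the markers of Kupffer, endothelial and stellate cells were lowest within HNF6KO on array 2, where the mitotic median was highest. Single genes departed from this. The endothelial marker Lyve1 and the stellate markers Des and Colec11 were lowest on HNF6KO array 1. The stellate markers Col1a1 and Col3a1 were lowest on HNF6KO array 4. HNF6KO array 4 did not share the low marker medians. Its mitotic median was nearly as high (0.15), with medians of 0.63 for Kupffer, 0.54 for endothelial and 0.13 for stellate markers. The Kupffer cell markers (8 of 8 measured, 0 passing in limma and 0 at an unadjusted p of 0.05) had medians of -0.36, -0.72, 0.85 and 0.63 on HNF6KO arrays 1 to 4. On WT array 1, where the mitotic median was lowest, the Kupffer median was -0.92. Their summed level ran from 1993 to 5389 in WT and from 2123 to 6892 in HNF6KO on the linear scale. The T and B lymphocyte markers (8 of 10 measured, 0 passing in limma, 1 higher and 1 lower at an unadjusted p of 0.05) summed to 598 to 607 in WT and 581 to 658 in HNF6KO. The endothelial markers (8 of 8) summed to 3276 to 5558 and 2979 to 6252, and the stellate markers (8 of 8) to 3355 to 5695 and 3468 to 6106, with 0 passing in limma and 0 at an unadjusted p of 0.05. The cholangiocyte markers (5 of 6) summed to 392 to 409 and 374 to 406, also with 0 at both levels. The erythroid markers (7 of 8) summed to 1366 to 1548 and 831 to 1229, with 0 passing in limma and 1, Alas2, lower at an unadjusted p of 0.05 (log2 change -0.98, adjusted p = 0.0925, and 0.0296 with the array split as a term). Alas2 was the brightest of them (WT mean 9.81, the next being Ermap at 7.11) and so weighed most in the sum. The median log2 change of the list was -0.05, with 2 above 0 and 5 below. Klf1 had 0.07, Ermap 0.01, Slc4a1 -0.03, Rhag -0.05, Epb42 -0.10 and Tspo2 -0.12. The part of these cells in the mitotic differences was not tested. No marker stood at 0 on these arrays, since a probe set always gives a background value. Fewer cells of a type and less RNA per cell cannot be told apart in these samples.

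**Figure D5:**
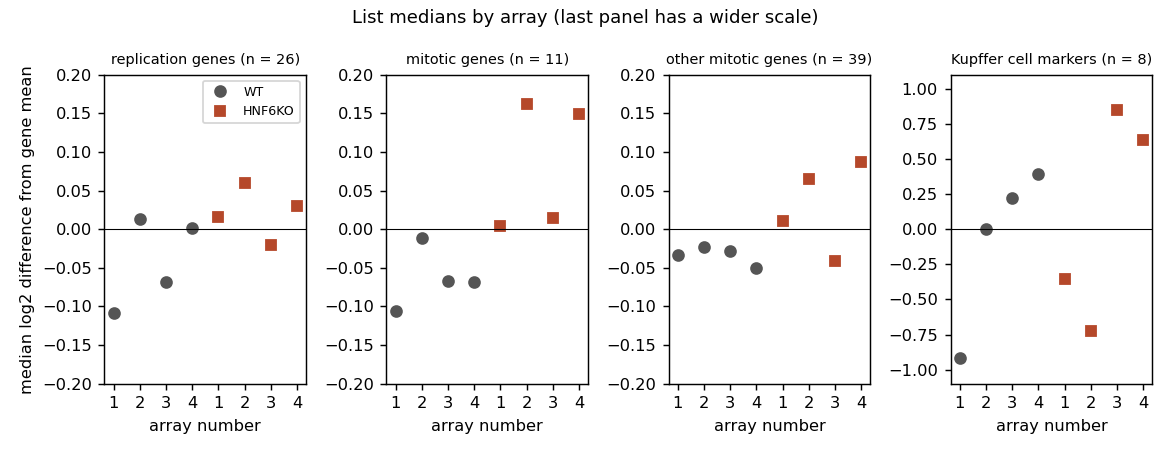
Median log2 difference from the gene's own mean over 8 arrays, for the replication genes, the mitotic genes, 39 further mitotic genes and 8 Kupffer cell markers, on WT arrays (circles) and HNF6KO arrays (squares) 1 to 4. The mitotic genes are highest on HNF6KO array 2 (0.16), where the Kupffer markers are low (-0.72, on a wider scale). On HNF6KO array 4 the mitotic genes are nearly as high (0.15) and the Kupffer markers are high (0.63).

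Further genes of replication had signs balanced around 0, with more lower than higher at an unadjusted p of 0.05. Of 44 measured genes among 45 listed, 0 passed in limma, 2 lay higher and 5 lower at an unadjusted p of 0.05, and the median was 0.0062 with 23 above 0. The shares higher and lower were 4.55% and 11.4%, against 4.3% and 5.21% of all genes. Rnaseh2c, a subunit of the nuclease that removes RNA from DNA, stood at 8.65, 8.65, 8.63 and 8.61 on WT arrays and at 8.38, 8.40, 8.30 and 8.42 on HNF6KO arrays. Every HNF6KO array lay below every WT array, and the log2 change was -0.26 ± 0.05 (adjusted p = 0.0624). It passed (adjusted p = 0.0349) in a fit with a term for arrays 1 and 2 against the rest, which called 1.25% of all genes. The fork protection gene Tipin had 0.25 ± 0.09, the primase subunit gene Prim2 had 0.18 ± 0.07, and the chromatin assembly gene Chaf1b had -0.16 ± 0.06 (adjusted p from 0.384 to 0.453).

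Most further mitotic genes lay higher in HNF6KO, as the members did. Of 39 measured among 40 listed, 31 had a log2 change above 0 (median 0.07), 0 passed in limma, and 7 lay higher and 2 lower at an unadjusted p of 0.05. The shares above 0, higher and lower were 79.5%, 17.9% and 5.13%, against 42.6%, 4.3% and 5.21% of all genes. Of the 39 genes, 27 were dim, below the 40th percentile, among them Prc1 and Tpx2. Their medians by array overlapped between the groups, with HNF6KO array 3 at -0.04 and the WT arrays between -0.05 and -0.02. The spindle genes Prc1 and Tpx2 had 0.26 ± 0.07 and 0.23 ± 0.07, and the cytokinesis gene Ect2 had 0.36 ± 0.11 (adjusted p from 0.239 to 0.301). Ccnf, whose product cyclin F marks ribonucleotide reductase and other proteins for destruction, went the other way. It stood at 6.95, 6.92, 6.95 and 6.85 on WT arrays and at 6.30, 6.48, 6.65 and 6.55 on HNF6KO arrays, a log2 change of -0.42 ± 0.07 (adjusted p = 0.0647, and 0.0291 with the array split as a term).

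The remaining regulators of G1/S and the CDK inhibitors had signs balanced around 0, with more lower than higher at an unadjusted p of 0.05. Of 26 measured among 27 listed, 13 had a log2 change above 0, 0 passed in limma, and 1 lay higher and 4 lower at an unadjusted p of 0.05. The shares higher and lower were 3.85% and 15.4%, against 4.3% and 5.21% of all genes. The pocket protein gene Rbl1 had 0.23 ± 0.06. The kinase genes Cdk2 and Cdk6 had -0.38 ± 0.12 and -0.39 ± 0.14, and the repressor E2f4 had -0.19 ± 0.07 (adjusted p of these 4 genes from 0.246 to 0.420).

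Pcna is also a known target of p53, and other p53 targets differed between HNF6KO arrays. Of 16 measured among 18 listed, 10 had a log2 change above 0 (median 0.03), against 42.6% of all genes. Of the 16 p53 targets, 0 passed in limma and 1 lay higher at an unadjusted p of 0.05, against 4.3% of all genes. Their median relative to each gene's own mean was -0.11, -0.14, 0.09 and 0.31 on HNF6KO arrays 1 to 4, and between -0.09 and 0.0029 on WT arrays. Ccng1 had a WT mean of 10.32 ± 0.30 (SD, n = 4) and stood at 10.28, 10.30, 11.27 and 11.50 on HNF6KO arrays, with 0.52 ± 0.29 (adjusted p = 0.639). Eda2r and Polk were likewise highest on HNF6KO arrays 3 and 4, at 6.33 and 6.68 and at 7.39 and 7.56. On those arrays Pcna stood at 9.54 and 9.62, and on HNF6KO arrays 1 and 2 at 9.51 and 9.63. Whether p53 has a part in its rise was not tested. The antiproliferative gene Btg2 had 0.67 ± 0.16 (adjusted p = 0.166), with its highest value, 8.66, on HNF6KO array 2.

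The genes of repair enzymes that work with the clamp had changes on both sides of 0. Of 13 measured genes of mismatch and base excision repair among 15 listed, 6 had a log2 change above 0 and 7 below (median -0.0037). Of these, 0 passed in limma and 0 reached an unadjusted p of 0.05. The smallest p belonged to the mismatch repair gene Pms2 (0.12 ± 0.06, adjusted p = 0.572), and the uracil glycosylase gene Ung had -0.17 ± 0.10 (adjusted p = 0.684).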

How the data were processed

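The authors deposited 1 log2 expression value per probe set and array (22725 probe sets, 8 arrays). The log2 scale is read from the values, which run from 3.69 to 14.1. No source used here gives how the arrays were corrected, normalized or summarised. The platform annotation paired 21113 probe sets with 1 symbol, 43 with several and 1569 with none here, which gave 19540 genes. The groups were compared with limma 3.58.1 under R 4.3.3, by lmFit and eBayes, and p-values were adjusted by Benjamini-Hochberg across every gene (threshold 0.05). The step was tested on simulated data.

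The members, the lists of further genes and markers, and the array split were chosen with earlier results of these data known. Values on every array were set to be given for members past the threshold, with groups that do not overlap, or with the 2 smallest p-values of their role list, and for further lists up to 4 genes with the smallest p. Mcm6, Ccnd1, Mki67 and Ccna2 were added after their values were seen. Alternatives were quantile normalization, median centring, cyclic loess, a filter at the 40th percentile, other variance models, array weights, other probe set rules, a threshold of 0.1, the replicate block, the array split, and arrays left out. Counts at an unadjusted p and of mitotic genes above 0 were followed across these settings after the data were seen. Promoter windows came from the RefSeq table (GRCm38.p6). The labels give no batch.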

Additional observations from a re-analysis of the deposited data

Results flagged for a closer look

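In each group of 4 arrays, the highest and the lowest value of the 42 members and of Onecut1 were compared with the rest. The gap to the nearest other array, over the range of the group, passed Dixon's 95% critical value in 5 of 86 groups, and chance flags about 1 group in 20.

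WT array 1 was low for Mcm4 (6.30, the other WT arrays 6.50 to 6.53) and for Plk1 (5.48, the others 5.67 to 5.69). WT array 2 was high for Prim1 (5.95, the others 5.55 to 5.61). HNF6KO array 4 was low for Mcm7 (7.13, the others 7.25 to 7.26). HNF6KO array 1 was low for Ccne2 (5.25, the others 5.58 to 5.59).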

How the results depend on the processing

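The count of 1 member past the threshold became 0 after median centring, with an intensity trend and robust variances, within arrays 1 and 2, within arrays 3 and 4, without HNF6KO arrays 3 and 4, and in each fit that left out 1 array (0 to 0). Pcna kept its direction in every fit listed here, with 0.34 to 0.40 when 1 array was left out. Its log2 change was 0.38 after median centring (adjusted p = 0.0571), 0.37 with the trend (0.0793), 0.38 within arrays 1 and 2 (0.299), 0.36 within arrays 3 and 4 (0.133), 0.37 without HNF6KO arrays 3 and 4 (0.147) and 0.37 for its other probe set (0.0521). Fits with fewer arrays have fewer degrees of freedom, and the cause of the other losses was not tested. The replicate block, with array numbers shared by the titles, gave Pcna 0.37 (adjusted p = 0.0497) and called 125 genes against 78. Same-numbered arrays deviated together with r = 0.04 to 0.53, 3 of 4 above 0.1, and not every array correlated best with its own number, so the numbers were not taken as pairs. Across the groups, arrays 1 and 2 correlated with arrays 1 and 2 (r = 0.18 to 0.48), and arrays 3 and 4 with arrays 3 and 4 (0.04 to 0.53). Between these sets r ran from -0.55 to 0.02. With a term for this array split, limma called 245 genes against 78. The mitotic median was 0.18 within arrays 1 and 2 and 0.19 without HNF6KO arrays 3 and 4. Left out 1 array at a time, the medians ran from 0.07 to 0.11 (replication), -0.09 to -0.0066 (G1/S) and 0.10 to 0.17 (mitotic). The 6 members higher at an unadjusted p of 0.05 were 3 after the filter, 11 with array weights, 2 within arrays 1 and 2, 10 within arrays 3 and 4, and 5 to 11 with 1 array left out. The 3 lower ones were 1 within arrays 3 and 4 and 1 to 4 with 1 array left out. The shares of all genes at that p in these fits are not given here. At an adjusted p of 0.05, genes called higher numbered 31 with all 8 arrays and 101 with array weights. They numbered 50 within arrays 3 and 4 and 8 within arrays 1 and 2. The 10 mitotic genes above 0 were 4 after the filter, which kept 4. The signs of some members turned. Lig1 had -0.041 within arrays 3 and 4. Fen1 had -0.046 with array weights, -0.0020 within arrays 3 and 4, and -0.022 to 0.038 with 1 array left out. Others that turned include Mcm6 (-0.0037) and Mcm5 (-0.02) within arrays 3 and 4. Rfc1 (-0.07) and Rrm2 (-0.08) turned within arrays 1 and 2. Of the 42 members, 34 had a log2 change above 0, against 25 within arrays 3 and 4 and 28 with array weights. The shares of all genes above 0 in these 3 fits were 42.6%, 41.2% and 40.2%. Background was not measured, so how far it limits the 15 members below the 40th percentile was not tested.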
